A study of Mus musculus with 2 samples.

Results

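The E2F transcription factors and the RB proteins that bind them were followed in mouse megakaryocytes, the cells that shed platelets. The genes were chosen by name: E2f1 to E2f8, Rb1 and Rbl1, 10 of the 43346 Ensembl genes quantified, all kept whatever their level. The series held 2 libraries of polyadenylated RNA, both from primary cells of embryonic day 14.5 and called replicate 1 and replicate 2 by the labels. The cells were pooled from males and females. Both libraries cite the same biosample and donor, and part of their spread may be technical. A strain, genotype or treatment is not given in the sources used here, and with 1 group no condition was compared. The ratios given are replicate 1 over replicate 2. They set 1 library against 1 library, have no replicate check and carry no p-value.

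E2F factors bind DNA at the promoters of genes for DNA replication and the cell cycle, most of them together with a DP partner. The RB, p107 and p130 pocket proteins hold E2F factors in a repressive state until cyclin-dependent kinases phosphorylate them at the passage into S phase. Megakaryocytes are known for endomitosis, rounds of DNA replication without cell division that make the cells polyploid. The factors fall into activators (E2f1, E2f2 and E2f3), repressors (E2f4, E2f5 and E2f6) and the atypical E2f7 and E2f8, which bind DNA without a DP partner.

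Depth differed 18.5-fold. The expected counts, estimated numbers of fragments per gene, summed to 42099219 in replicate 1 and 2275940 in replicate 2. Where a gene has 0 counts, up to 3 remain possible, which as CPM (counts scaled to the library total) is 0.0713 in replicate 1 and 1.32 in replicate 2. All 10 megakaryocyte markers reached a mean of at least 1 TPM (a level corrected for transcript length and depth), and they summed to 16372 TPM for replicate 1 and 23672 TPM for replicate 2. Markers of other cells also differed between the libraries. Of 9 macrophage markers, 7 reached that level and summed over the list to 874 TPM for replicate 1 and 229 TPM for replicate 2, with Cd163 and Timd4 at 0 in both. The 8 granulocyte markers summed to 843 TPM for replicate 1 and 150 TPM for replicate 2, where Ctsg, S100a8, S100a9 and Ltf were at 0. The 8 erythroid markers summed to 7083 TPM for replicate 1 and 13896 TPM for replicate 2. Of these sums, Hba-a1 alone held 4480 TPM in replicate 1 and 12715 TPM in replicate 2. Hbb-bt and Hbb-bs went the other way, at 1719 and 727 TPM in replicate 1 and 513 and 481 TPM in replicate 2. The median log2 ratio of the 8 erythroid markers was -0.13. Lymphoid markers (6 genes) summed to 3.14 TPM for replicate 1 and 2.36 TPM for replicate 2, and 5 hepatocyte markers to 1.68 TPM for replicate 1 and 1.82 TPM for replicate 2. Among these, Cd3e, Alb, Ttr and Serpina1a were at 0 in both. The part of these other cells in any ratio was not tested, and in bulk RNA fewer cells of a type and less RNA per cell cannot be told apart.

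All 10 genes reached a mean of 1 TPM, and each also did so in both libraries. That level was reached by 22.7% of all genes and by 42.5% of protein coding genes, and in both libraries by 34.8% of protein coding genes. The highest was E2f4 at 40.1 ± 0.643 TPM (SD, n = 2 here and for each mean below), followed by E2f1 at 27.8 ± 6.33, E2f8 at 24.0 ± 2.62 and E2f2 at 18.3 ± 11.6 TPM. E2f3, which ranked between E2f8 and E2f2, averaged 18.6 TPM, with 11.5 TPM in replicate 1 and 25.7 TPM in replicate 2. The lower 5 were E2f5 at 8.11 ± 8.00, E2f7 at 7.54 ± 2.26, Rb1 at 4.65 ± 2.19, E2f6 at 2.63 ± 1.38 and Rbl1 at 1.73 ± 0.615 TPM. Of the 9 neighbouring pairs in this order, only E2f4 and E2f1 had values that did not overlap. The other 8 neighbouring pairs overlapped between the libraries, so their order is not resolved. Over all 45 pairs of genes, 38 stood in the same order in both libraries and 31 had values that did not overlap.

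**Figure D1:**
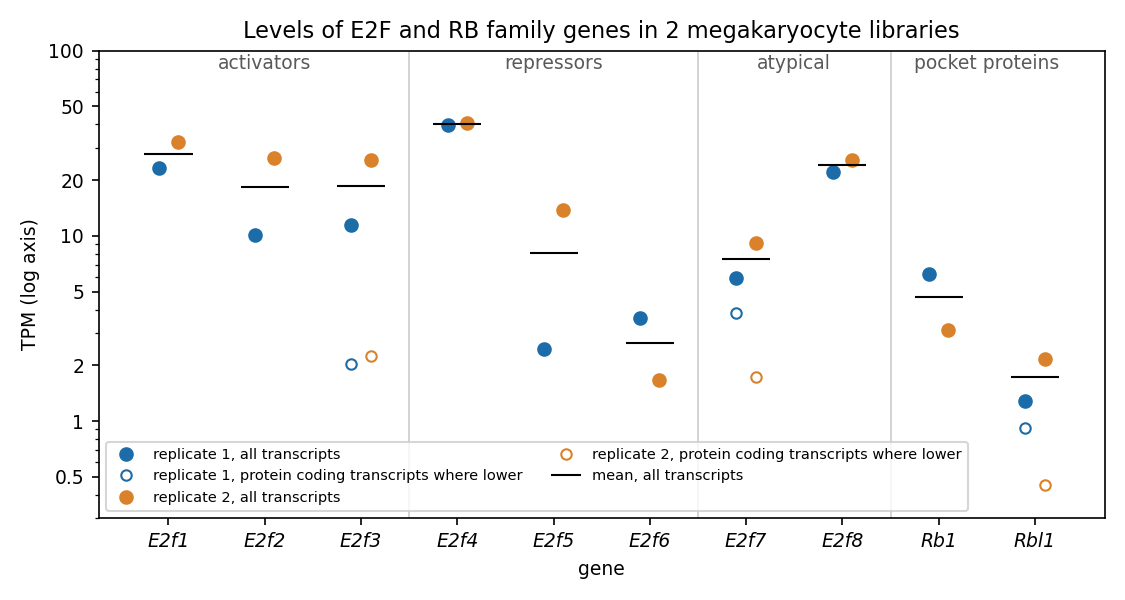
TPM (log axis) of the 10 genes in replicate 1 (blue) and replicate 2 (orange), with black bars at the mean and genes ordered by role. Open points give the protein coding transcripts alone where these are lower than the gene's total, as for E2f3, E2f7 and Rbl1. E2f4 is the highest gene in both libraries, at 39.7 TPM in replicate 1 and 40.6 TPM in replicate 2.

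Among the activators, E2f1 was the highest. It encodes the factor best known for driving entry into S phase (ENSMUSG00000027490, chr2:154559407-154569892, minus strand, GRCm38 as for each position here). It was at 23.3 TPM in replicate 1 and 32.3 TPM in replicate 2, from 2378 expected counts in replicate 1 and 155 in replicate 2. These levels were above those of 84.6% of protein coding genes in replicate 1 and 88.6% in replicate 2. After scaling of the counts by TMM, a scaling factor that assumes most genes do not differ, the ratio was 0.612 (exact 95% interval 0.520 to 0.725, counting error only). Under TMM scaling, E2f1 was thus lower in replicate 1 by more than counting error, and the size of the difference depended on the scaling. The log2 ratio was -0.71 by TMM and -0.27 by total counts. With the trend of the ratio with the GC content of genes removed, it was -0.43. The deposited posterior mean TPM was 22.9 in replicate 1 and 23.1 in replicate 2. The transcript E2f1-202 was assigned 88.9% of the gene's TPM in replicate 1 and 98.4% in replicate 2. The longer E2f1-201 took the rest, with 2.49 counts in replicate 2. Both forms share exons 2 to 6 and most of exon 7, so most fragments do not tell them apart.

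E2f2, the activator known for its part in blood cell development, differed more (ENSMUSG00000018983, chr4:136172394-136196057, plus strand). Its level was 10.1 TPM in replicate 1 and 26.5 TPM in replicate 2, from 1824 expected counts in replicate 1 and 226 in replicate 2. The ratio was 0.322 (0.280 to 0.371), or -1.63 on the log2 scale. Every count came from 1 coding transcript, E2f2-201, in both libraries. At the gene level, E2f1 stood above E2f2 in both libraries.

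E2f3, whose gene is known for alternative first exons that give the E2F3A and E2F3B forms, had a gene-level TPM that rested on a short transcript (ENSMUSG00000016477, chr13:29906575-29986063, minus strand). It was listed at 11.5 TPM in replicate 1 and 25.7 TPM in replicate 2, from 392 expected counts in replicate 1 and 22 in replicate 2. Of the TPM, 82.4% in replicate 1 and 91.2% in replicate 2 were assigned to E2f3-202, a transcript with no coding sequence that is 216 bases long in the deposited table. It held only 30 counts in replicate 1 and 3 in replicate 2. The coding E2f3-201, 4702 bases long, took 92.3% of the counts in replicate 1 and 86.4% in replicate 2. Its level was 2.02 TPM for replicate 1 and 2.25 TPM for replicate 2, a mean of 2.13 ± 0.163 TPM. The ratio of the gene's scaled counts was 0.711 (0.463 to 1.15), or -0.49 on the log2 scale, against -1.16 for the deposited TPM. By coding transcripts alone E2f3 was therefore at rank 9 of the 10 genes, against rank 4 by gene-level TPM. In the later GENCODE M21 annotation, E2f3-202 is 389 bases long and shares 321 of them with a coding transcript, E2f3-203, which starts at the downstream first exon and is not in the deposited transcript tables. The short transcript and that coding form cannot be told apart in these values.

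The repressor E2f4, which in many cell types is the most abundant E2F and binds all 3 pocket proteins, also had, under TMM scaling, the log2 ratio nearest to 0 of the 10, at -0.27 (ENSMUSG00000014859, chr8:105297663-105305370, plus strand). It was at 39.7 TPM in replicate 1 and 40.6 TPM in replicate 2, from 2888 expected counts in replicate 1 and 139 in replicate 2. The ratio of scaled counts was 0.829 (0.699 to 0.990). Its direction turned by total counts, to 0.17 on the log2 scale, and in the posterior mean TPM, 38.9 in replicate 1 and 28.9 in replicate 2. In replicate 2 the posterior mean also lay under TPM for E2f1 (23.1 against 32.3) and E2f2 (20.5 against 26.5). For E2f1 in replicate 1 it was 22.9 against 23.3, so that turn is not read as a trait of E2f4. By TPM, 88.9% of protein coding genes lay lower than E2f4 in replicate 1 and 90.1% in replicate 2.

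E2f5, a repressor that pairs mainly with p130, differed most in level and in assigned transcript (ENSMUSG00000027552, chr3:14578641-14606309, plus strand). It was at 2.45 TPM in replicate 1 and 13.8 TPM in replicate 2, from 158 expected counts in replicate 1 and 41 in replicate 2. The ratio was 0.154 (0.108 to 0.222), or -2.70 on the log2 scale. All 158 counts of replicate 1 were assigned to E2f5-201. All 41 of replicate 2 were assigned to E2f5-202, so the leading transcript was a different one in each library. The transcripts are close to identical. E2f5-201 has 30 more bases at its 5′ end and 1 more at its 3′ end, and E2f5-202 has 3 more bases at the start of exon 4. The junction of exons 3 and 4 (ends at chr3 positions 14588301 and 14601003 or 14601000) is shown because those 3 bases, in capitals, are the only internal difference.
E2f5-201: ctccattaataacagattttcttatgt
E2f5-202: ctccattaataacagTACattttcttatgt
Apart from these bases and the transcript ends, a fragment does not tell the forms apart, so no counting interval is given for these shares. The deposited posterior mean estimates divided replicate 2 between both forms, at 2.71 TPM for E2f5-201 and 7.47 TPM for E2f5-202. Whether the libraries differ in this splice site was not tested.

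E2f6, the repressor that lacks a pocket protein binding domain and acts through Polycomb-type complexes, was low (ENSMUSG00000057469, chr12:16810963-16839742, plus strand). It was at 3.61 TPM in replicate 1 and 1.66 TPM in replicate 2, from 324 expected counts in replicate 1 and 7 in replicate 2. The counting interval in replicate 2 was 0.667 to 3.42 TPM. The ratio was 1.85 (0.886 to 4.63), so under TMM scaling the interval included 1. The log2 ratio was 0.88 by TMM and 1.32 by total counts, so the scaling as well as the depth bears on it.

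The atypical repressors were of unequal level. E2f8, known with E2f7 to limit E2F1 activity and to promote polyploidy in liver and placenta of mice, was at rank 3 of the 10 (ENSMUSG00000046179, chr7:48866429-48881596, minus strand). It was at 22.1 TPM in replicate 1 and 25.8 TPM in replicate 2, from 2931 expected counts in replicate 1 and 163 in replicate 2, with a ratio of 0.717 (0.613 to 0.845). The coding transcript E2f8-202 led in both libraries with 91.3% of TPM in replicate 1 and 75.1% in replicate 2. The other coding form, E2f8-201, was at 1.93 TPM in replicate 1 and 6.42 TPM in replicate 2. By assigned counts, its share was 9.20% in replicate 1 and 25.9% in replicate 2. Both forms share exons 2 to 13 and differ in exon 1, so most fragments do not tell them apart and no counting interval is given. The gene's log2 ratio was -0.48 by TMM and -0.04 by total counts, and its direction turned in the posterior mean TPM, 21.8 in replicate 1 and 19.5 in replicate 2. As for E2f1, E2f2 and E2f4, the posterior mean of replicate 2 lay under its TPM, so this turn is not read as a trait of E2f8.

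E2f7 was lower (ENSMUSG00000020185, chr10:110745439-110787384, plus strand). It was at 5.94 TPM in replicate 1 and 9.14 TPM in replicate 2, from 512 expected counts in replicate 1 and 15 in replicate 2. Here the TPM and the scaled counts differed in direction, since the ratio of counts was 1.36 (0.818 to 2.45), or 0.45 on the log2 scale, against -0.62 for the deposited TPM. The TPM of replicate 2 came mostly (81.1%) from E2f7-203, a transcript of 438 bases with no coding sequence that held 4 counts. In replicate 1 that transcript took 32.8% and the coding E2f7-204 took 55.3%. After removal of the GC trend the log2 ratio of counts was -0.08. By coding transcripts alone E2f7 was at 3.81 TPM in replicate 1 and 1.73 TPM in replicate 2.

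**Figure D2:**
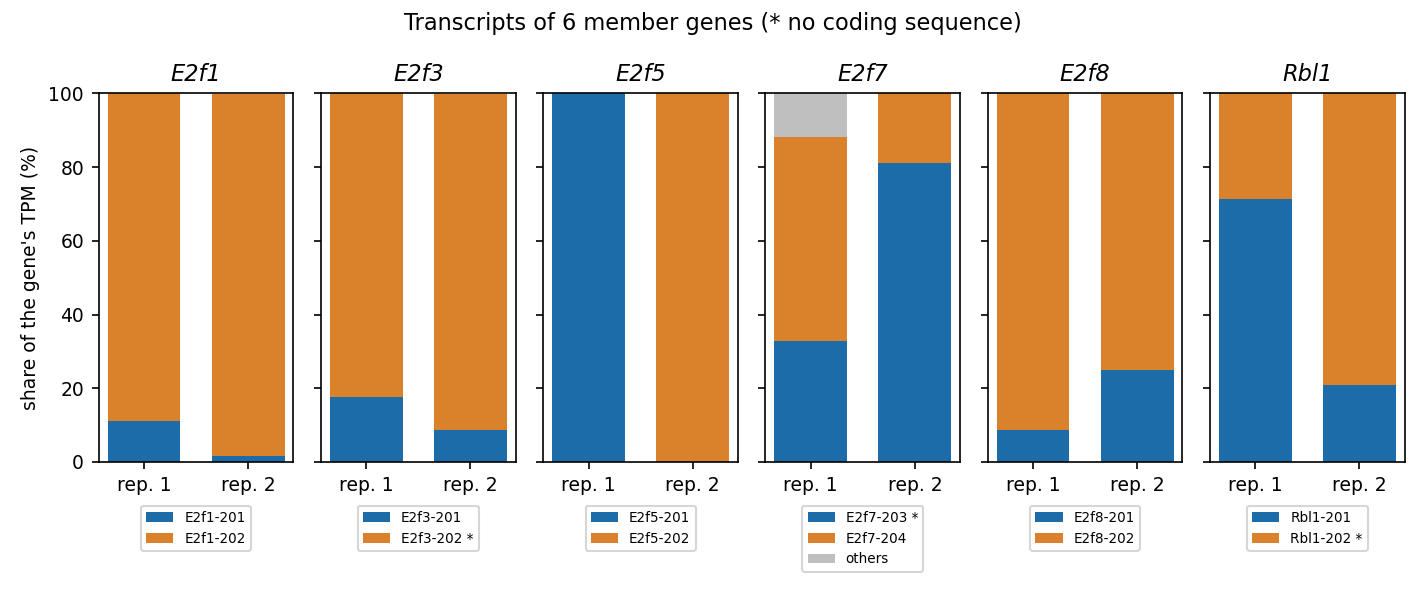
Share of each gene's TPM (%) by transcript in replicate 1 (left bar) and replicate 2 (right bar) for 6 genes, with transcripts that lack a coding sequence marked by an asterisk. E2f5 is assigned to a different coding form in each library, and E2f3 TPM lies mostly in the short E2f3-202 in both, at 82.4% in replicate 1 and 91.2% in replicate 2.

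Rb1, which encodes the retinoblastoma protein, was the higher of the pocket proteins followed here (ENSMUSG00000022105, chr14:73183673-73325822, minus strand). It was at 6.20 TPM in replicate 1 and 3.10 TPM in replicate 2, from 1099 expected counts in replicate 1 and 26 in replicate 2, all assigned to the coding Rb1-201 of 6 annotated transcripts. The ratio was 1.69 (1.14 to 2.59), or 0.75 on the log2 scale. After the trend of the ratio with the GC content of genes was removed, the value was -0.16, so the direction depended on that step. It also turned in the deposited posterior mean TPM, 6.62 in replicate 1 and 10.5 in replicate 2, a mean of 8.58, where the leading transcript differed between the libraries. In that measure Rb1-201 alone kept its direction, at 6.08 TPM in replicate 1 and 2.25 TPM in replicate 2. The rest lay in transcripts with 0 counts in both libraries, so the turn does not rest on counts.

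Rbl1, the gene of p107, a pocket protein typical of cycling cells, was the lowest (ENSMUSG00000027641, chr2:157145893-157204534, minus strand). It was at 1.29 TPM in replicate 1 and 2.16 TPM in replicate 2, from 203 expected counts in replicate 1 and 11 in replicate 2, with a ratio of 0.736 (0.403 to 1.50). A transcript with a retained intron, Rbl1-202, was assigned 28.7% of the TPM in replicate 1 and 79.2% in replicate 2, where it had 7.10 counts. The coding Rbl1-201 alone was assigned 0.920 TPM in replicate 1 and 0.450 TPM in replicate 2. Rbl1-202 shares 1827 of its 2383 bases with Rbl1-201, and fragments from those bases do not tell the forms apart.

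Rbl2, the gene of p130, the pocket protein typical of resting cells, was at 2.83 TPM for replicate 1 and 1.66 TPM for replicate 2, and by coding transcripts alone at 0.760 TPM in replicate 1 and 1.03 TPM in replicate 2. The 3 pocket protein genes summed to 10.3 TPM for replicate 1 and 6.92 TPM for replicate 2. Rb1 held 60.1% of that sum in replicate 1 and 44.8% in replicate 2, and by coding transcripts alone 78.7% in replicate 1 and 67.7% in replicate 2. The 8 E2F genes summed to 119 TPM for replicate 1 and 175 TPM for replicate 2, so the E2F sum lay above the pocket protein sum in each. Activators made up 37.8% of the E2F sum in replicate 1 and 48.1% in replicate 2, repressors 38.5% in replicate 1 and 31.9% in replicate 2, and atypical factors 23.6% in replicate 1 and 19.9% in replicate 2. By coding transcripts alone, the E2F sum was 107 TPM in replicate 1 and 145 TPM in replicate 2. Activators were then 33.1% in replicate 1 and 42.2% in replicate 2, and repressors 42.7% in replicate 1 and 38.7% in replicate 2.

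Of the 10 genes, 8 have at least 2 annotated transcripts. The leading transcript by TPM was the same in both libraries for 5 of them (E2f1, E2f2, E2f3, E2f8 and Rb1) and differed for E2f5, E2f7 and Rbl1. Among 6577 genes with at least 2 transcripts and a mean of at least 1 TPM, 62.3% had the same leading transcript, so the share among these 8 lay near the background.

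Of the 10 genes, 9 passed a mean count of at least 100. Among these, 0 were at least 2-fold higher in replicate 1 and 1, E2f2, was at least 2-fold lower. Over 8194 genes, 33.8% were higher and 15.7% lower by that measure. The minimum is met mostly through replicate 1, which is deeper, and at a mean of at least 50 CPM the shares over 2576 genes were 15.8% higher and 26.4% lower. E2f5 had a ratio beyond 2-fold and missed the count minimum with a mean of 99.5. The median log2 ratio of the 10 was -0.46, against 0.30 for the 8194 genes, and 7 of the 10 lay under that median. With total counts as the scale, the 10 genes had a median of -0.02 and the 8194 genes 0.74. Those 8194 genes met the count minimum mostly through replicate 1, so nothing is read from these differences. The intervals of E2f3, E2f6, E2f7 and Rbl1, with 7 to 22 counts in replicate 2, included a ratio of 1.

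**Figure D3:**
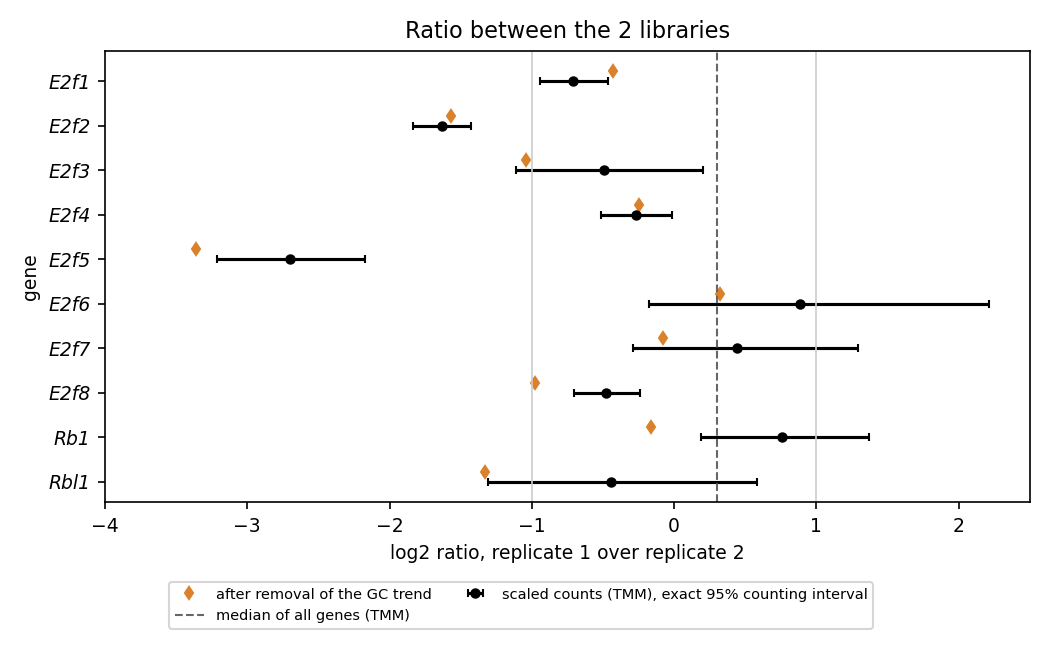
Log2 ratio of replicate 1 over replicate 2 (x axis) for the 10 genes. Black points are TMM-scaled counts with exact 95% counting intervals, and orange diamonds are values after removal of the GC trend. The dashed line is the median of all genes past the count minimum (0.30), and grey lines mark 2-fold. E2f2 and E2f5 lie left of the 2-fold line, and Rb1 changes side with the GC step.

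The DP partners that most E2F factors need for DNA binding were both under E2f4, E2f1 and E2f8 in level. Tfdp1, the gene of DP1, was at 5.95 TPM in replicate 1 and 2.43 TPM in replicate 2, with a ratio of 2.08 (0.999 to 5.21). Tfdp2 was at 1.87 TPM in replicate 1 and 3.62 TPM in replicate 2, with a ratio of 0.531 (0.320 to 0.946). In replicate 2 Tfdp1 had 7 counts and Tfdp2 had 16, so their order there is not resolved. Their sum was 7.82 TPM in replicate 1 and 6.05 TPM in replicate 2, under E2f4 alone in each.

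The MuvB core joins E2F4 or E2F5 and p107 or p130 in the DREAM complex, and joins B-MYB and FOXM1 later in the cycle. Of its list of 7 genes, 4 reached a mean of 1 TPM. Lin37, a core subunit, was at 60.0 TPM for replicate 1 and 50.4 TPM for replicate 2, and Mybl2 (B-MYB) at 37.6 TPM in replicate 1 and 15.1 TPM in replicate 2. The coding transcripts of Lin37 alone were at 60.0 TPM in replicate 1 and 22.5 TPM in replicate 2. Foxm1 was at 14.0 TPM in replicate 1 and 19.9 TPM in replicate 2. Lin9, Lin52 and Lin54 were low, with 37, 18 and 53 counts in replicate 1 and 0 in replicate 2, where the depth cannot show them. At a mean count of at least 100, 4 of the 7 could be compared, 1 was at least 2-fold higher in replicate 1 and 0 were lower, beside 33.8% and 15.7% of all genes. Within the E2F6 complex list, 8 of 9 genes reached 1 TPM. Its highest were Ehmt2, a histone methyltransferase, at 341 TPM for replicate 1 and 556 TPM for replicate 2, and Max, the partner of MYC and MGA, at 85.2 TPM in replicate 1 and 88.1 TPM in replicate 2. Ehmt1 followed at 20.8 TPM in replicate 1 and 22.3 TPM in replicate 2. By coding transcripts alone, Ehmt2 was at 113 TPM in replicate 1 and 233 TPM in replicate 2. Ehmt1 by that measure was at 6.55 TPM in replicate 1 and 0.490 TPM in replicate 2. The lowest was Mga, the scaffold of the complex, at 1.18 TPM for replicate 1 and 0.290 TPM for replicate 2. Of 7 compared, 1 was higher in replicate 1 and 0 lower, beside the same shares of all genes.

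Kinases and cyclins that act on RB proteins included the highest genes of the pathway. Ccnd3 (cyclin D3), known for its role in megakaryocyte endomitosis in mice, was at 1482 TPM in replicate 1 and 898 TPM in replicate 2. Cdk4 was at 805 TPM in replicate 1 and 297 TPM in replicate 2, with a ratio of 2.11 (1.89 to 2.37). Ccnd2 (cyclin D2) was at 28.7 TPM in replicate 1 and 52.1 TPM in replicate 2, with a ratio of 0.466 (0.427 to 0.510). The lowest, Ccne2 (cyclin E2), was at 0.900 TPM in replicate 1 and listed at 0 in replicate 2. Of the 8 genes, 7 reached 1 TPM, 2 of 7 compared were at least 2-fold higher in replicate 1 and 1, Ccnd2, was lower, beside 33.8% and 15.7% of all genes. All 8 RB corepressor genes reached 1 TPM, and 4 of the 8 were at least 2-fold higher in replicate 1, beside 33.8% of all genes. Of these, Hdac1 and Suv39h1 passed the count minimum through replicate 1 alone. Sin3b was at 93.5 TPM for replicate 1 and 129 TPM for replicate 2, and Smarca4, the BRG1 remodeller, at 86.7 TPM in replicate 1 and 91.4 TPM in replicate 2. Hdac1, a histone deacetylase, was at 33.4 TPM in replicate 1 and 4.16 TPM in replicate 2, with a ratio of 10.7 (5.44 to 24.9). That ratio used the 8.47 counts of replicate 2 rounded to 8, and the log2 ratio without rounding was 3.34. By coding transcripts alone Hdac1 was at 26.2 TPM in replicate 1 and 1.45 TPM in replicate 2. The lowest was Suv39h1, a histone methyltransferase, at 3.79 TPM in replicate 1 and 1.01 TPM in replicate 2.

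From a list of 30 known E2F target genes, 27 reached a mean of 1 TPM and 23 did so in both libraries. Cdt1, which licenses replication origins, was at 61.9 TPM in replicate 1 and 84.1 TPM in replicate 2. Ccna2 (cyclin A2) was at 44.6 TPM for replicate 1 and 63.0 TPM for replicate 2, and Rrm2, a subunit of ribonucleotide reductase, at 38.7 TPM in replicate 1 and 49.2 TPM in replicate 2. Coding transcripts of Ccna2 alone were at 5.09 TPM in replicate 1 and 7.43 TPM in replicate 2, so its gene-level TPM rested mostly on other transcripts. The ratios of these 3, named as the highest of the list, were 0.624, 0.620 and 0.666 (log2 -0.68, -0.69 and -0.59). The median log2 ratio of the whole list, given below, had the other sign. Cdc6, a loader of the replicative helicase, was low, with 74 counts in replicate 1 and 0 in replicate 2. Gmnn, Rfc4 and Gins1 were also at 0 in replicate 2, against 198, 414 and 226 counts in replicate 1. Against a floor of 3 counts in that library they were at least 2.63-fold, 5.51-fold and 3.01-fold higher in replicate 1. Among 25 target genes past the count minimum, 10 were at least 2-fold higher in replicate 1 and 0 lower, beside 33.8% and 15.7% of all genes. With all genes at a mean of at least 50 CPM, those shares were 15.8% and 26.4%, so nothing is read from this count. The median log2 ratio of all 30 was 0.76, or 0.46 with members at 0 set to 3 counts. That median was 0.30 for all genes past the count minimum, which was met mostly through replicate 1, and -0.46 for the 10 E2F and RB genes. Rfc4 and Gins1 passed the count minimum through replicate 1 alone. Macrophage and granulocyte marker sums were also higher in replicate 1, and their part in these ratios was not tested.

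**Figure D4:**
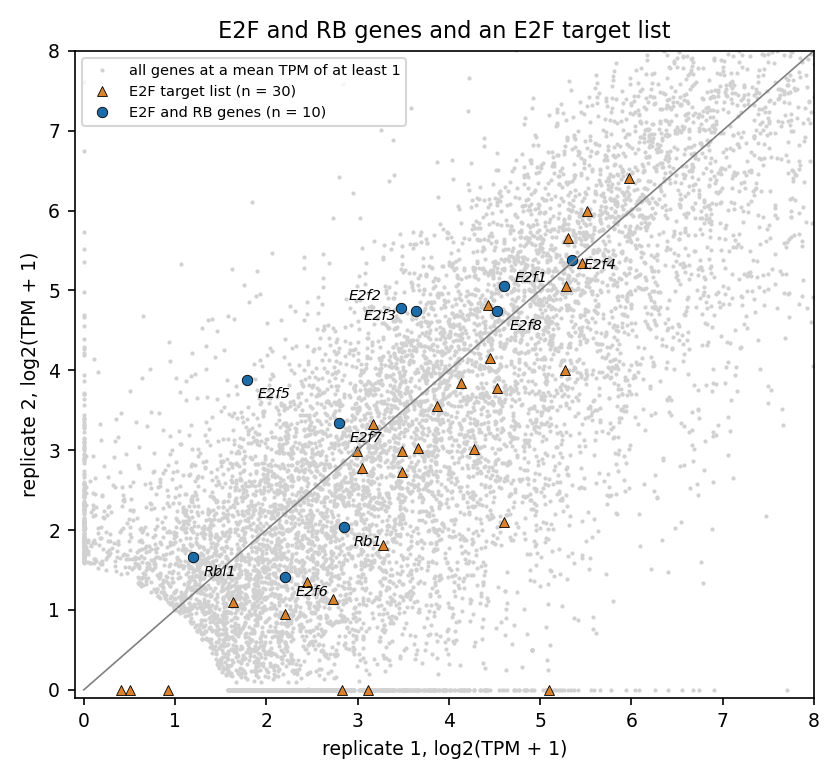
Level in replicate 1 (x axis) against replicate 2 (y axis), both as log2(TPM + 1), for the 10 E2F and RB genes (blue), 30 E2F target genes (orange) and all genes at a mean of at least 1 TPM (grey, shown up to 8). Rb1 and E2f6 lie below the line of equal level and the other E2F and RB genes above it, and 6 target genes lie at 0 in replicate 2.

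The promoters of some of these genes themselves hold E2F type motifs. The motifs searched were TTTCCCGC, TTTCGCGC, TTTGCCGC and TTTGGCGC on both strands, in RefSeq windows of 250 bases before to 50 bases after each start (GRCm38.p6). Windows were found for 7 of the 10 genes, and 4 of the 7 held a match, against 2.60% of 27025 genes and 13 of 24 E2F target genes. The 4 matches are shown with the motif in capitals, each in 30 bases read along the gene's strand. In E2f7 and E2f3 the motif is on the other strand and appears as its reverse complement.
Rbl1: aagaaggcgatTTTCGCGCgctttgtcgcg
E2f2: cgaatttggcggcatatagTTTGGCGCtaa
E2f7: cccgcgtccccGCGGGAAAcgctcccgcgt
E2f3: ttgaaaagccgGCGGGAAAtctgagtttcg
They lie at chr2:157204534-157204563 for Rbl1, chr4:136172294-136172323 for E2f2, chr10:110745230-110745259 for E2f7 and chr13:29986056-29986085 for E2f3. The match began 18 bases before the start in Rbl1, 198 in E2f7 and 11 in E2f3, and at base 40 from the RefSeq start in E2f2. For E2f3 the start is the upstream one, that of E2f3-201, and the window of the downstream start held none. For E2f2 the RefSeq start, chr4:136172274, lies before the gene's start given above, 136172394. The E2f2 match is therefore upstream of the gene as placed there. E2f6, E2f8 and E2f1 held no match in their windows. E2f1-202, assigned most of the gene's TPM, starts 216 bases outside the RefSeq window of E2f1. Its first 30 bases (GENCODE M21, chr2:154569863-154569892) hold a match. Bases outside a window were searched for E2f1 alone, so this match has no background share and is not among the 4.
E2f1-202: tttcgcggcaaaaaggaTTTGGCGCgtaaa
These matches describe letters in the reference sequence, and no binding was measured. Whether a match goes with the level of a gene was not tested, and E2f4, E2f5 and Rb1 had no window.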

How the data were processed

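Polyadenylated RNA-seq of mouse megakaryocytes was analysed in 2 libraries, from 1 gene table and 1 transcript table each. The expected count deposited by the authors estimates the fragments of each gene or transcript and can hold decimals. TPM and FPKM, deposited by the authors, are scaled to effective length and depth, as maximum likelihood values and posterior means. Per the labels and file lists, the assembly was mm10 and the annotation GENCODE M4. No source used here names the aligner or quantifier. Of the rows, 43346 Ensembl genes were used. Another 26345 rows, holding 15.0 counts in replicate 1 and 0 in replicate 2, were left out. Symbols and GC content came from GENCODE M21 and matched 42462 genes.

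Counts were rounded and scaled by edgeR 4.0.16 TMM factors (1.164 in replicate 1 and 0.859 in replicate 2, from 12132 genes averaging 10 counts or more) in R 4.3.3. DESeq2 1.42.0 size factors, total counts, TPM and removal of the GC trend (lowess fraction 0.3) were alternatives, as were other count and TPM minimums. Calls needed a 2-fold ratio and a mean count of at least 100. Intervals are exact (Clopper-Pearson, conditional on the summed count). They and the floors cover counting error alone, since reads lacking molecular identifiers are not independent. List medians used a prior count of 0.5 in replicate 2 and 12.5 in replicate 1. The interval and ratio code was tested on simulated data. Python 3.11.15, numpy 2.4.6, pandas 2.3.3, scipy 1.17.1, statsmodels 0.14.6 and matplotlib 3.10.9 were used.

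The text names all 10 genes, Rbl2 and the DP partners. Of other lists it names the 3 highest, the lowest and genes at 0 in a library, and of transcripts those with at least 10% of a gene's TPM. Marker lists are given as sums with the genes at 0, and for erythroid markers also with the 3 highest. Values of some genes under this rule are not reported here. Values of coding transcripts alone were added after seeing the data. No genes were named by likeness of pattern, since 2 libraries of 1 group define none. The members and lists were chosen with earlier results of these data known.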

Additional observations from a re-analysis of the deposited data

How the results depend on the processing

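All 10 genes stayed at 1 TPM or more with either library left out (10 and 10) and by posterior means. By coding transcripts alone 9 did so (Rbl1 was under it). By gene-level mean TPM, 7 reached 5 TPM. Shares of all genes are not given for these settings, so nothing is read from these counts. Genes at least 2-fold higher in replicate 1 numbered 2 (E2f6 and Rb1) by total counts, beside 43.5% of all genes, and 2 by TPM, beside 38.1%. Those lower numbered 2 by TPM (E2f2 and E2f3), beside 13.0% of all genes, and 3 with the GC trend removed (E2f2, E2f3 and Rbl1), beside 20.6%. They numbered 2 at a mean count of at least 10, beside 16.3%, and 2 with no filter, beside 22.4% (E2f2 and E2f5 in both). By coding transcripts alone, 3 of 4 genes kept their leading transcript, beside 68.6% of 4590 genes, so this count lay near the background. The median log2 ratio of the MuvB list was 1.28, and reversed to -0.50 with members at 0 set to 3 counts. The cause of these changes was not tested. No paired analysis was possible because the labels give only 1 group. Of 40 log2 ratios of single genes under other scalings, 27 kept within their counting interval and 13 moved. The median of all genes past the count minimum was 0.30 by TMM, 0.26 by DESeq2 size factors and 0.45 by TPM. By total counts it was 0.74, and with the GC trend removed 0.02. Counts in replicate 2 limit E2f6 (7), Rbl1 (11), E2f7 (15), E2f3 (22) and Rb1 (26).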
